A study of Mus musculus with 9 samples.

Results

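The genes described here are the nuclear-encoded genes of the respiratory chain and ATP synthase. They were taken from the deposited expression table by their names: those that begin with Nduf, Uqcr or Atp5, the genes Sdha, Sdhb, Sdhc and Sdhd, and those that begin with Cox followed by a number from 4 to 8, leaving out names that end in -ps or Rik. This gave 88 genes out of 16537, or 99 transcripts out of 21388, and the transcripts of a gene were summed. Complex I (NADH dehydrogenase) held 44 of them, complex II (succinate dehydrogenase) 4, complex III (the cytochrome bc1 complex) 8, complex IV (cytochrome c oxidase) 15 and complex V (ATP synthase) 17. The label of the group fits 80 genes counted as subunits or subunit isoforms, among them Cox7a2l, a supercomplex factor. The names also catch 8 assembly or coupling factors, Ndufaf1 to Ndufaf6, Atp5s and Atp5sl. RNA was sequenced from 9 libraries of bone marrow cells, 3 in each group, from mice of the inbred strain FVB/NJ. The control group, HPC, was made of hematopoietic progenitor cells of wild-type mice at postnatal day 42. The other groups were leukemic progenitors (LP) of PML-RAR mice, which carry the fusion protein of acute promyelocytic leukemia, in an early and in a median phase (early LP and median LP). No age in days, no sorting markers and no promoter of the transgene are given for the LP in the sources used here, so leukemia, age and the mix of sorted cells cannot be told apart in the comparisons with HPC.

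The respiratory chain sits in the inner membrane of mitochondria. Complexes I and II take electrons from NADH and succinate and pass them to ubiquinone, complex III hands them on to cytochrome c, and complex IV to oxygen. Complexes I, III and IV pump protons as electrons pass, and ATP synthase lets the protons flow back through a rotating ring to make ATP. A few core subunits of complexes I, III, IV and V are encoded in mitochondrial DNA and were not analysed here, while complex II is encoded in the nucleus throughout. Quiescent blood stem cells are known to rely little on respiration, and red cell precursors and proliferating progenitors to carry many active mitochondria.

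Each library held 20.6 to 28.4 M (mega) fragments, recovered from the deposited counts, and levels are given in CPM, the share of all counts times 1 M, with ± for the SD over n = 3 libraries. Where 3 levels are given for a group, they are those of libraries 1, 2 and 3 in that order. Whether libraries of 1 group come from separate animals is not stated in the labels, and p-values then measure a spread that may be technical. HPC 3 stood apart from HPC 1 and HPC 2 with higher levels of short transcripts. The log2 level of each gene, relative to its mean over the 9 libraries, was fitted on log2 transcript length. The slope per doubling of length was -0.10 in HPC 3, against 0.076 in HPC 1 and 0.097 in HPC 2. It was 0.011, -0.040 and -0.071 in early LP 1 to 3 and -0.042, 0.031 and 0.038 in median LP 1 to 3. All LP slopes lay below those of HPC 1 and HPC 2, so leaving out HPC 3 does not match the groups in this slope. Most respiratory chain transcripts are short, with a median length of 709.5 bases, and the median member lay 0.23 above the HPC mean on the log2 scale in HPC 3, against -0.12 in HPC 1 and -0.11 in HPC 2. Counts are therefore also given without HPC 3 and with offsets for transcript length. Cell type markers moved between the groups as well. All 10 erythroid markers were lower in early LP and 9 of 10 in median LP, and their levels summed to 3577 to 3960.1 CPM over the HPC libraries, 191 to 208 over early LP and 181 to 209 over median LP. Stem and multipotent progenitor markers were lower for 9 of 10 in early LP and 8 of 10 in median LP, with sums of 985 to 1087, 261 to 262 and 244 to 259 CPM. Promyelocyte markers were higher for 6 and 5 of 7, with sums of 13208 to 14885, 34948 to 39963 and 28786 to 30770.3 CPM. Megakaryocyte markers were lower for 6 of 7 in both (sums of 136 to 172 CPM in HPC and at most 13.0 in LP). In early and then median LP, basophil and mast cell markers were lower for 5 and 4 and higher for 1 and 1 of 7 (sums of 222 to 253, 37.7 to 44.3 and 33.0 to 36.0 CPM for HPC, early and median LP). Monocyte and dendritic cell markers were lower for 8 and 7 of 8 (sums of 197 to 244, 22.8 to 28.8 and 32.0 to 36.0 CPM), and stromal and endothelial markers lower for 3 and higher for 2 of 5 tested in both (sums of 52.3 to 61.7, 15.3 to 20.5 and 15.1 to 16.7 CPM). Of 10 lymphoid markers only 3 passed the filter on low counts, with 1 lower in early LP and 2 lower and 1 higher in median LP, and their sums were 147 to 166, 146 to 159 and 108 to 129 CPM. Among them the B cell gene Cd79b, picked after its values were seen, was at 14.8 ± 1.29 CPM in HPC, with 0.295 ± 0.122 CPM for early LP and 0.534 ± 0.225 CPM for median LP, and the T cell genes Cd3e and Cd8a had no fragment in HPC. The part of these markers and of HPC 3 in the changes below was not tested, and in bulk RNA fewer cells of a type and less RNA per cell cannot be told apart.

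Nuclear genes of the chain are known targets of the factors NRF-1 and GABP (also called NRF-2), which bind GC-rich motifs close to the start of transcription. RefSeq promoter windows on GRCm38.p6, from 250 bases before to 50 bases after the start, were matched by gene identifier for 73 of the 88 genes. The NRF-1 motif, searched on both strands as GCGCA, any base, then GCGC, was found in the windows of 19 of these 73 genes (26%), against 11.3% of the 10312 genes tested that have a window and 5.19% of all 27025 genes with one. The ETS motif that GABP binds, searched on both strands as CCGGAAG, was found for 17 genes (23.3%), against 19.9% and 9.93%. Sp1 boxes (GGGCGG) were found for 43.8% and CCAAT boxes for 45.2% of the members, against 67.2% and 43.4% of the genes tested. Among the 34 matched genes that were lower in both LP groups, 10 held the NRF-1 motif (29.4%) and 7 the ETS motif (20.6%), and among the 5 that were higher in both, 1 held each (20%). These shares are descriptions, and a missing match says only that the letters are not in the window. The 130 bases before the start are shown, with NRF-1 and ETS matches in capitals, for 4 genes that fell or rose and hold a motif there. They are also shown for Ndufs4 and Ndufa6, which rose and hold neither motif in the 250 bases before the start. Matches that reach past the start count in the shares above but are not marked below. The matches in the printed sequences do not overlap each other.
Sdha (chr13:74350241-74350370, minus strand, 3 NRF-1 matches, fell): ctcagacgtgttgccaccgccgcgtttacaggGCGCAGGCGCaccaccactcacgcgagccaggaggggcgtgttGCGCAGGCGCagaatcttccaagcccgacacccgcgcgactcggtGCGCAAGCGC
Sdhd (chr9:50603850-50603979, minus strand, 1 NRF-1 and 1 ETS match, fell): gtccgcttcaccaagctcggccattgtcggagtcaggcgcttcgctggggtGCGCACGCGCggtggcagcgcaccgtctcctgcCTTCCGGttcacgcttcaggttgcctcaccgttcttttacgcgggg
Ndufs3 (chr2:90904722-90904851, minus strand, 1 ETS match, fell): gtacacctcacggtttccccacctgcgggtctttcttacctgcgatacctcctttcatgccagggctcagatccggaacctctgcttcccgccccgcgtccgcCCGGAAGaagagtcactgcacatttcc
Ndufb7 (chr8:83566628-83566757, plus strand, 1 ETS match, rose): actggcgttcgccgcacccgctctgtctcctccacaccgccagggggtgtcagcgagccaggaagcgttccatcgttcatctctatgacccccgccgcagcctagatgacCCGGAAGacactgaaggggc
Ndufs4 (chr13:114388095-114388224, minus strand, no match, rose): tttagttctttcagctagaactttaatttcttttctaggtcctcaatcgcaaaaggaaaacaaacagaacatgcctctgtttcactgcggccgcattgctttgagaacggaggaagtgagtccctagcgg
Ndufa6 (chr15:82354292-82354421, minus strand, no match, rose): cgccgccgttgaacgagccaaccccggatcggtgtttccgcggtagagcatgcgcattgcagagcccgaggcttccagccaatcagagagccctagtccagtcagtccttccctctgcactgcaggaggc

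In early LP more respiratory chain genes were lower than higher against HPC. Of 87 genes that passed the filter on low counts, 41 were called lower and 11 higher at a Benjamini-Hochberg adjusted p under 0.05 in edgeR's quasi-likelihood test over all 12837 genes tested, while of all genes 73.2% were called, 37.9% lower and 35.3% higher. The shares for the members were 47.1% lower and 12.6% higher. Their median log2 change was -0.25, against -0.038 over all genes tested. In median LP 51 genes were lower and 7 higher (58.6% and 8.05%), against 37.7% and 36% of all genes (73.8% in either direction), and the median log2 change was -0.34, against -0.036. Both comparisons use the same HPC libraries. The 41 genes lower in early LP were also lower in median LP, where 10 more were called (Atp5l, Cox5a, Cox6b2, Cox7b, Cox8a, Ndufa12, Ndufa8, Ndufb2, Ndufs8 and Ndufv3). Cox6c, Ndufa1, Ndufa6, Ndufb3, Ndufb7, Ndufb9 and Ndufs4 were higher in both, Cox4i1, Cox7a1, Ndufa13 and Uqcrq were called higher in early LP alone, and 25 genes were called in no comparison. Ndufa4l2, a relative of Ndufa4 known from hypoxic cells, did not pass the filter, with 2 recovered fragments over the HPC libraries, 3 over early LP and 1 over median LP.

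**Figure D1:**
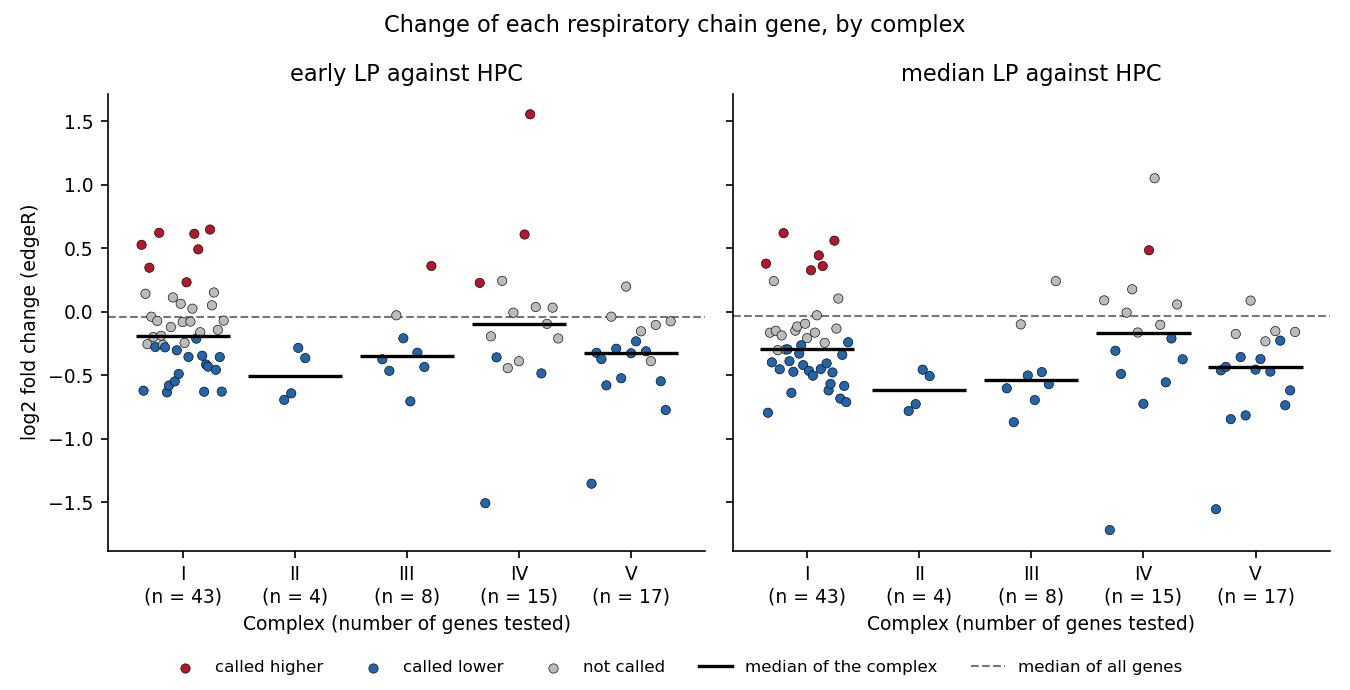
Log2 fold change of each respiratory chain gene by complex, relative to HPC, for early LP (left panel) and median LP (right panel). Each point is 1 gene, red where called higher, blue where called lower and grey where not called, black bars are medians of a complex and the dashed line is the median of all genes tested. All 4 genes of complex II are called lower in both panels, while complex IV has 3 genes called higher and 3 called lower in the left panel.

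The count of higher genes depended on which libraries were used, of HPC and of early LP. Without HPC 3, 19 genes were higher and 35 lower in early LP (36% and 37.9% of all genes) with a median log2 change of -0.11, and 15 were higher and 46 lower in median LP (36.3% and 37.7%) with a median of -0.23. The 11 higher calls in early LP became 6 without HPC 1 (34.4% of all genes), 7 without HPC 2 (34.7%), 6 without early LP 2 (33.2%) and 8 without early LP 3 (33.2%). Over all 19 alternatives, 29 of the 41 lower and 6 of the 11 higher calls held in early LP, and 45 of the 51 lower and 4 of the 7 higher calls held in median LP. The lower calls that did not hold throughout were those of Atp5h, Atp5j2, Cox4i2, Cox5b, Ndufa4, Ndufa9, Ndufaf5, Ndufb4, Ndufb8, Ndufv1, Uqcr11 and Uqcrc1 in early LP and of Atp5l, Cox4i2, Cox7b, Ndufa8, Ndufaf5 and Ndufv3 in median LP. Cox4i2 counts among these because its FPKM was too low for limma. With library totals as the sole scaling, the median of all genes moved to -0.22 in early LP and -0.17 in median LP. Relative to it the median member stood at -0.20 and -0.30, against -0.21 and -0.30 with TMM scaling. Higher genes made up 21.2% of the members called in early LP with TMM and 10.9% with library totals, against 48.2% and 37.3% over all genes called (28.4% of all genes tested with library totals).

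Complex I begins the chain, and its 7 core subunits that are encoded in the nucleus form the arm that binds NADH and carries the electrons to ubiquinone. The log2 changes of these 7 lay between -0.63 and -0.14 in early LP, where 6 were lower, and between -0.71 and -0.34 in median LP, where 7 were lower. None was higher, and without HPC 3 the counts were 6 and 7. Ndufs1, the large iron-sulfur subunit, stood at 173, 183 and 188 CPM in HPC, 121, 114 and 116 for early LP and 122, 118 and 113 for median LP. Each LP library lay below each HPC library. It fell by 0.63 (SE 0.064, adjusted p = 2.59e-06) in early LP and by 0.62 (SE 0.064, adjusted p = 2.98e-06) in median LP, all on the log2 scale as are the changes below. Its locus overlaps that of another gene in the table, so its reads may be shared. Ndufv2, an iron-sulfur subunit of the NADH-binding tip, was at 106, 99.7 and 125 CPM in HPC, 71.4, 66.9 and 75.4 for early LP and 70.3, 67.0 and 64.5 for median LP, again without overlap between HPC and LP. It fell by 0.63 (SE 0.086, adjusted p = 3.64e-05) in early LP and by 0.71 (SE 0.086, adjusted p = 1.27e-05) in median LP. Ndufv1, which holds the flavin at the same tip, fell by 0.36 (SE 0.11, adjusted p = 0.0101) in early LP and by 0.58 (SE 0.11, adjusted p = 0.000388) in median LP, and without early LP 1 its adjusted p in early LP was 0.0510. Ndufs7, which passes electrons on to ubiquinone, was at 54.5, 62.6 and 80.8 CPM in HPC, 43.7, 49.8 and 50.6 for early LP and 43.9, 39.2 and 40.1 for median LP. HPC 3 was the highest of its group, and the lowest HPC library was above every LP library. Ndufs7 fell by 0.46 (SE 0.12, adjusted p = 0.00527) in early LP and by 0.68 (SE 0.12, adjusted p = 0.000335) in median LP. Ndufs3, of the ubiquinone-binding part, fell by 0.43 and by 0.48 in early and median LP. Ndufs8 was the exception in early LP, with a change of -0.14 (SE 0.096, adjusted p = 0.200), and fell by 0.34 (adjusted p = 0.00727) in median LP.

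The 29 accessory subunits of complex I, which surround the core, were called in both directions, each time at a smaller share than all genes. In early LP 7 were higher and 6 lower, against 35.3% and 37.9% of all genes. In median LP the counts were 6 and 10, against 36% and 37.7%. The median log2 change of these subunits was -0.072 and -0.19, turning to 0.089 in early LP without HPC 3 and to 0.010 in median LP with length offsets. Ndufs4, which is needed late in the assembly of the NADH-binding arm, stood at 65.3, 63.5 and 75.8 CPM in HPC, 115, 99.8 and 106 for early LP and 106, 98.7 and 97.0 for median LP. The lowest LP library was above the highest HPC library. Ndufs4 (mm10, chromosome 13, 114287795 to 114388094) rose by 0.65 (SE 0.082, adjusted p = 1.91e-05) in early LP and by 0.56 (SE 0.082, adjusted p = 6.32e-05) in median LP. Ndufa6, a small subunit of the matrix arm, was at 45.3, 48.3 and 65.6 CPM in HPC, 76.3, 77.6 and 91.1 for early LP and 87.4, 77.2 and 80.0 for median LP. All LP libraries were above HPC 3, the highest of the HPC libraries. It rose by 0.62 (SE 0.13, adjusted p = 0.000797) in early LP and by 0.62 (SE 0.13, adjusted p = 0.000803) in median LP. Ndufb7, a subunit of the membrane arm on the side of the intermembrane space, was at 54.2, 53.3 and 68.5 CPM in HPC, 77.4, 91.7 and 100.5 for early LP and 85.0, 78.4 and 76.1 for median LP. It rose by 0.61 (SE 0.11, adjusted p = 0.000366) in early LP and by 0.44 (SE 0.11, adjusted p = 0.00359) in median LP. Again HPC and LP did not overlap. Ndufb9, Ndufb3 and Ndufa1, small subunits of the membrane arm, also rose in both comparisons, by 0.49 and 0.36, by 0.23 and 0.33, and by 0.53 and 0.38. The call of Ndufb9 in median LP was lost with library totals (adjusted p = 0.0524). That of Ndufb3 in early LP was lost without any 1 of HPC 1, HPC 2, early LP 2 and early LP 3 (adjusted p between 0.0535 and 0.0796). That of Ndufa1 in median LP was lost without any 1 of HPC 1, HPC 2, median LP 1 and median LP 3 (adjusted p between 0.0562 and 0.0943). The same calls of Ndufb3 and Ndufa1 were also lost with upper quartile scaling (adjusted p = 0.128 and 0.0859) and with library totals (0.557 and 0.106). For Ndufa1 HPC 3, at 45.3 CPM, overlapped early LP 2 (44.7) and median LP 2 (45.1). Ndufa13, a subunit that shares its locus with another gene, rose by 0.35 in early LP and changed by 0.24 in median LP without passing the threshold. The call in early LP was lost without HPC 1, HPC 2 or early LP 2 (adjusted p = 0.10, 0.0914 and 0.123). It was also lost with upper quartile scaling (adjusted p = 0.0825), library totals (0.242) and both limma settings (0.0548 and 0.0555). In median LP Ndufa13 was called higher with length offsets (0.29, adjusted p = 0.0125) and without HPC 3 (0.44, adjusted p = 0.000595).

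On the other side, Ndufa10, an accessory subunit of the membrane arm, was at 109, 109 and 130.1 CPM in HPC, 72.6, 74.5 and 79.0 for early LP and 67.9, 67.6 and 65.0 for median LP. Every LP library was below every HPC library. Ndufa10 fell by 0.62 (SE 0.077, adjusted p = 1.47e-05) in early LP and by 0.80 (SE 0.077, adjusted p = 1.78e-06) in median LP. Ndufab1, the mitochondrial acyl carrier protein, which also serves fatty acid and lipoate synthesis, stood at 76.8 ± 7.73 CPM in HPC, with 49.4 ± 7.58 CPM for early LP and 49.3 ± 4.25 CPM for median LP and fell by 0.64 (SE 0.11, adjusted p = 0.000258) in early LP and by 0.64 (SE 0.11, adjusted p = 0.000243) in median LP. Ndufa9, Ndufb4, Ndufb8 and Ndufc2 were lower in both LP groups as well, with changes of -0.28 and -0.39, of -0.36 and -0.50, of -0.21 and -0.45 and of -0.35 and -0.41. In early LP the call of Ndufa9 was lost without early LP 1 (adjusted p = 0.0506), that of Ndufb4 without HPC 3, early LP 1 or early LP 2 (adjusted p = 0.0788, 0.0792 and 0.0687), and that of Ndufb8 without any 1 of HPC 1, HPC 3, early LP 1, early LP 2, early LP 3, median LP 1, median LP 2 and median LP 3 (adjusted p between 0.0538 and 0.174). The call of Ndufb8 was also lost with DESeq2, no filter on low counts, both limma settings and a replicate block. Ndufa8, Ndufa12, Ndufb2 and Ndufv3 were called lower in median LP alone, at -0.30, -0.40, -0.47 and -0.24. Ndufa8 and Ndufa12 were called lower in early LP too with length offsets (adjusted p = 0.0112 and 0.0216) and without HPC 1 (0.00423 and 0.0270), as was Ndufb2 without HPC 1 (0.0318). The call of Ndufa8 in median LP was lost without any 1 of HPC 2, HPC 3, median LP 1, median LP 2 and median LP 3 (adjusted p between 0.0576 and 0.115) and that of Ndufv3 without any 1 of HPC 1, HPC 3, early LP 1, early LP 2, median LP 1, median LP 2 and median LP 3 (adjusted p between 0.0510 and 0.183). The call of Ndufv3 was also lost with DESeq2, no filter on low counts and the top transcript alone. The accessory subunits called in no comparison, 12 genes such as Ndufa2, Ndufa5 and Ndufb10, lay between -0.20 and 0.15 in early LP. Without HPC 3, Ndufb6 and Ndufs6 were called higher in both LP groups (0.25 and 0.20, and 0.25 and 0.20) and Ndufb10 in early LP (0.23). Of the 6 assembly factors Ndufaf1 to Ndufaf6, which build complex I and are no part of it, 4 were lower and none higher in early LP, and 4 in median LP. Ndufaf1 fell by 0.58 and by 0.47, Ndufaf4 fell by 0.55 and by 0.33, Ndufaf5 fell by 0.30 and by 0.26 and Ndufaf6 fell by 0.49 and by 0.42 in early and median LP. The call of Ndufaf5 was lost in early LP without early LP 3 (adjusted p = 0.0552) and in median LP without any 1 of HPC 3, median LP 1, median LP 2 and median LP 3 (adjusted p between 0.0559 and 0.0868). In median LP it was also lost with DESeq2 and with a replicate block. Ndufaf2 changed by -0.12 and -0.15 and Ndufaf3 by 0.11 and -0.12, short of the threshold, and without HPC 3 Ndufaf3 was called higher in early LP (0.24). Ndufa4, named for complex I and now known as a subunit of complex IV, fell by 0.28 and by 0.45, and its call in early LP was lost without HPC 3, early LP 1 or early LP 2 (adjusted p = 0.109, 0.0841 and 0.111).

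Complex II was the sole complex with every gene lower in both comparisons. Its 4 genes encode an enzyme shared by the chain and the citric acid cycle: Sdha holds the flavin that oxidizes succinate, Sdhb the iron-sulfur clusters, and Sdhc and Sdhd anchor the enzyme in the membrane and bind ubiquinone. Sdha (mm10, chromosome 13, 74322255 to 74350240), whose promoter with 3 NRF-1 matches is shown above, stood at 353, 370.4 and 401 CPM in HPC, 220.2, 239 and 236 for early LP and 221, 214 and 218 for median LP. LP libraries were all below HPC 1, the lowest HPC library, and early and median LP lay close together. Sdha fell by 0.69 (SE 0.068, adjusted p = 1.94e-06) in early LP and by 0.78 (SE 0.068, adjusted p = 6.65e-07) in median LP. Sdhb was at 92.2, 106 and 127 CPM in HPC, 69.1, 71.8 and 67.3 for early LP and 70.2, 62.1 and 64.0 for median LP. It fell by 0.64 (SE 0.10, adjusted p = 0.000116) in early LP and by 0.73 (SE 0.10, adjusted p = 4.20e-05) in median LP. HPC 3 was highest, and HPC 1, the lowest HPC library, was above every LP library. Sdhd was at 215, 221 and 251 CPM in HPC, 172, 180.1 and 181 for early LP and 169.6, 154 and 160.2 for median LP, with no overlap between HPC and LP. It fell by 0.37 (SE 0.074, adjusted p = 0.000774) in early LP and by 0.51 (SE 0.074, adjusted p = 5.96e-05) in median LP. Sdhc had the smallest changes, with 118 ± 16.2 CPM in HPC, with 96.9 ± 2.65 CPM for early LP and 86.1 ± 3.54 CPM for median LP. It fell by 0.28 (SE 0.088, adjusted p = 0.0121) in early LP and by 0.46 (SE 0.089, adjusted p = 0.000574) in median LP. Over the complex the median log2 change was -0.50 and -0.62, and -0.40 and -0.52 without HPC 3, where all 4 calls held in both comparisons.

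**Figure D2:**
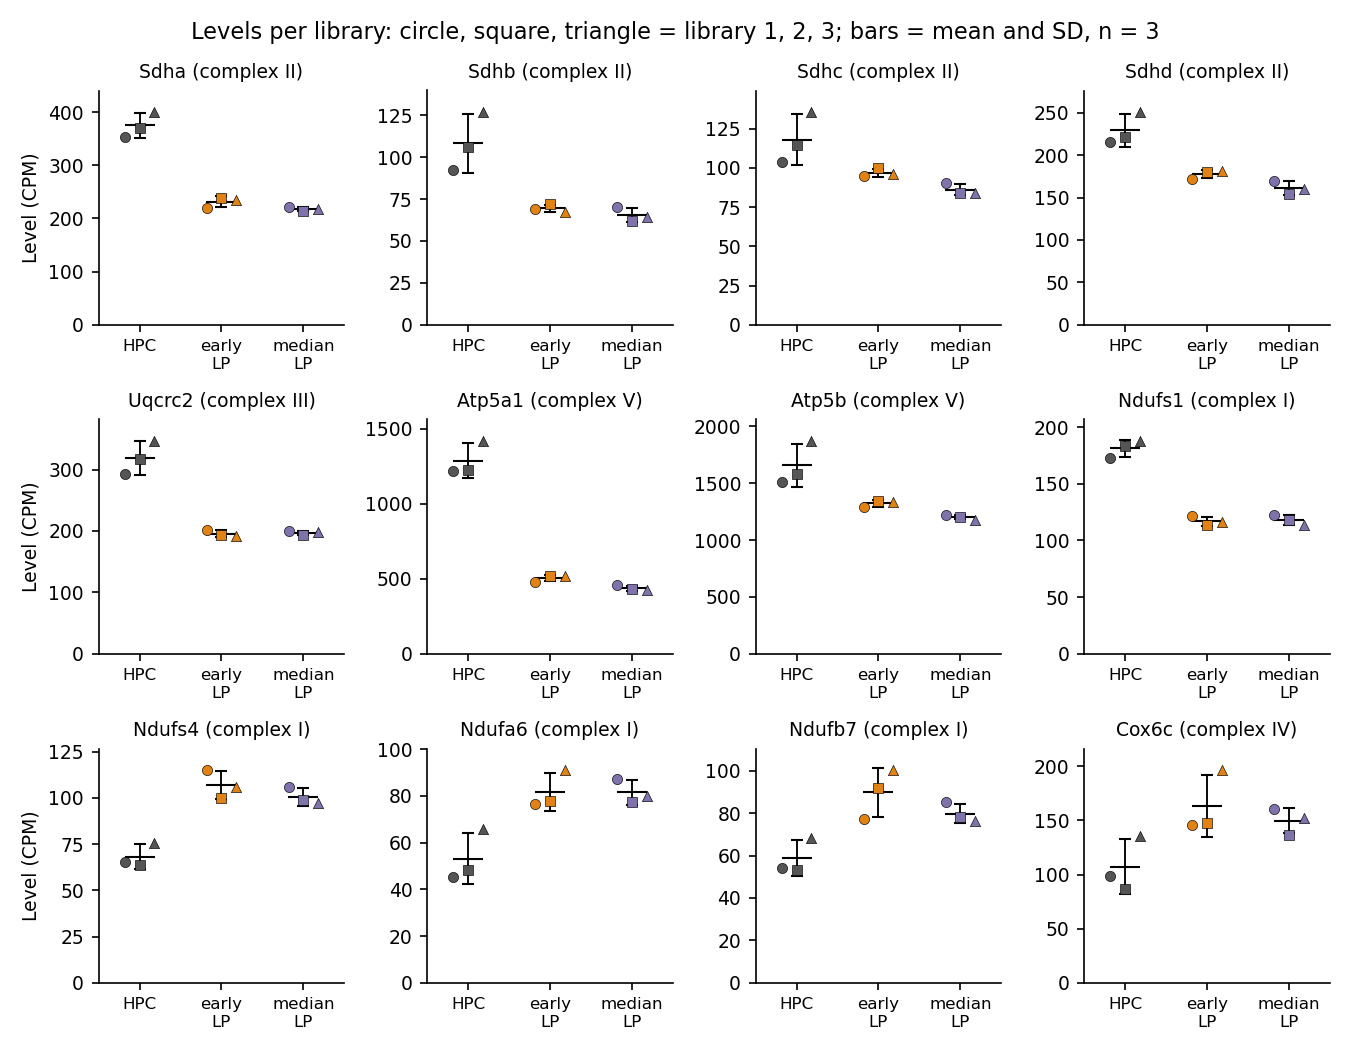
Level in CPM (vertical axes, from 0) of 12 respiratory chain genes in the 3 libraries of HPC, early LP and median LP, with the mean and SD of n = 3 libraries. Sdha lies between 353 and 401 CPM in HPC and between 214 and 239 in LP, while the genes of the bottom row (Ndufs4, Ndufa6, Ndufb7 and Cox6c) are higher in the LP libraries, and HPC 3 (triangle) is the highest HPC library in all 12 panels.

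In complex III, 6 of 8 genes were lower and 1 higher in early LP, and 6 lower and none higher in median LP, with a median log2 change of -0.35 and -0.54. Of all genes, 37.9% were lower and 35.3% higher in early LP, and 37.7% and 36% in median LP. Uqcrc2, a core protein of the matrix side, stood at 293, 318 and 347 CPM in HPC, 202, 193 and 192 for early LP and 199, 193 and 198 for median LP. HPC and LP did not overlap, and the LP libraries spanned only 192 to 202 CPM. Uqcrc2 fell by 0.71 (SE 0.071, adjusted p = 2.67e-06) in early LP and by 0.70 (SE 0.071, adjusted p = 3.00e-06) in median LP. Its locus is shared with another gene. Its partner Uqcrc1 was at 290.4, 289 and 336 CPM in HPC, 243, 278 and 270.3 for early LP and 228, 209.5 and 208 for median LP. It fell by 0.21 (SE 0.082, adjusted p = 0.0365) in early LP and by 0.50 (SE 0.082, adjusted p = 0.000150) in median LP, and the call in early LP was lost without any 1 of HPC 3, early LP 1, early LP 3, median LP 2 and median LP 3 (adjusted p between 0.0517 and 0.155). That call was also lost with no filter on low counts, both limma settings and a replicate block. Uqcrfs1, the Rieske iron-sulfur protein that takes electrons from ubiquinol, fell by 0.32 and by 0.48, and Uqcrh, the hinge protein by which cytochrome c docks, fell by 0.44 and by 0.57 in early and median LP. Of the small subunits, Uqcr11 was at 45.8, 53.5 and 77.6 CPM in HPC, 40.6, 47.4 and 40.2 for early LP and 34.0, 31.7 and 31.1 for median LP. It fell by 0.47 (SE 0.15, adjusted p = 0.0172) in early LP and by 0.87 (SE 0.16, adjusted p = 0.000329) in median LP. HPC 3 stood above the others, early LP 2 overlapped HPC 1, and without early LP 1 the adjusted p in early LP was 0.0573. Uqcr10 fell by 0.37 (SE 0.11, adjusted p = 0.00883) in early LP and by 0.60 (SE 0.11, adjusted p = 0.000375) in median LP. Uqcrq, at 32.5, 32.2 and 47.6 CPM in HPC, 46.4, 51.6 and 46.3 for early LP and 43.4, 44.8 and 44.8 for median LP, went the other way. It rose by 0.36 (SE 0.13, adjusted p = 0.0229) in early LP, and its change of 0.24 (adjusted p = 0.106) in median LP did not pass the threshold. HPC 3 overlapped the LP libraries. The call in early LP was lost without HPC 1, HPC 2 or early LP 2 (adjusted p = 0.0796, 0.0688 and 0.0811). It was also lost with upper quartile scaling (adjusted p = 0.0628) and with library totals (adjusted p = 0.191). With length offsets or without HPC 3 Uqcrq was called higher in both. Uqcrb, with changes of -0.028 and -0.10, was not called, and its entry in the table carries the gene identifier of Uqcrq besides its own.

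Complex IV had the median changes nearest to 0. In early LP 3 of 15 genes were higher and 3 lower, with a median log2 change of -0.096, and in median LP 1 was higher and 7 lower, with a median of -0.16 that turned to 0.019 with length offsets and to 0.058 without HPC 3. Of all genes, 35.3% were higher and 37.9% lower in early LP, and 36% and 37.7% in median LP. Among the 10 subunits found in all tissues, 2 were higher and 1 lower in early LP, and 1 higher and 4 lower in median LP. Cox6c, a small membrane subunit, was at 98.8, 87.1 and 136 CPM in HPC, 145, 148 and 197 for early LP and 161, 137 and 152 for median LP. HPC 3 nearly reached median LP 2, the lowest LP library, and Cox6c (mm10, chromosome 15, 35931976 to 35938246) rose by 0.61 (SE 0.16, adjusted p = 0.00421) in early LP and by 0.48 (SE 0.16, adjusted p = 0.0152) in median LP. Without HPC 2 its adjusted p in median LP was 0.0539. Cox4i1, which takes part in the control of the enzyme by ATP, was at 283, 284 and 358 CPM in HPC, 352, 364 and 368 for early LP and 350.3, 302 and 333 for median LP. It rose by 0.23 (adjusted p = 0.0485) in early LP, with 0.089 (adjusted p = 0.413) in median LP. HPC 3 overlapped the LP libraries. The call of Cox4i1 in early LP was lost without any 1 of HPC 1, HPC 2, early LP 1 to 3 and median LP 3 (adjusted p between 0.0589 and 0.135), and without HPC 3 it was called higher in both. Cox5b, the zinc-binding subunit of the matrix side, fell by 0.36 and by 0.49, and its call in early LP was lost without HPC 3, early LP 1 or early LP 2 (adjusted p = 0.0548, 0.0745 and 0.0778). Cox5a, Cox7b and Cox8a were called lower in median LP alone, at -0.31, -0.21 and -0.37. The call of Cox7b was lost without HPC 3, median LP 2 or median LP 3 (adjusted p = 0.0593, 0.0748 and 0.0503). In early LP Cox5a was called lower without early LP 3 (adjusted p = 0.0135) and Cox8a without HPC 1 (adjusted p = 0.0334). Cox7a2l, a factor that links complexes III and IV into supercomplexes, stood at 122, 115 and 152 CPM in HPC, 86.5, 93.0 and 97.8 for early LP and 97.5, 80.0 and 86.6 for median LP, with no overlap between HPC and LP. It fell by 0.49 (SE 0.11, adjusted p = 0.00148) in early LP and by 0.56 (SE 0.11, adjusted p = 0.000551) in median LP. Cox6a1 changed by 0.24 and -0.0072 and Cox6b1 by -0.0074 and -0.16, none called, and these signs were not stable: Cox6a1 in median LP was called higher, at 0.20, with length offsets and at 0.19 without HPC 3, and Cox6b1 in early LP, at 0.21, without HPC 3. Without HPC 3 Cox6a1 and Cox7a2 were also called higher in early LP, at 0.44 and 0.21.

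Several complex IV subunits have a second isoform of restricted tissues. By deposited FPKM (reads scaled by depth and transcript length), the common isoform supplied nearly all RNA in 3 of these pairs. How the length enters was not given, so shares between transcripts of unlike length are approximate. Cox4i2, the isoform of lung and of low oxygen, made up 0.174 ± 0.0316% of the Cox4i pair in HPC, 0.0459 ± 0.0157% for early LP and 0.0411 ± 0.0251% for median LP. It rested on 15, 12 and 16 recovered fragments in HPC 1 to 3, 4, 3 and 4 in early LP 1 to 3 and 6, 1 and 4 in median LP 1 to 3. Its level over HPC was 0.269 (exact 95% counting interval 0.125 to 0.531) in early LP and 0.250 (exact 95% counting interval 0.116 to 0.492) in median LP, and it was called lower in both (log2 change -1.51, SE 0.43, and -1.72, SE 0.44). Cox7a1, the heart and muscle isoform, had 1, 5 and 5, then 4, 15 and 11, then 5, 7 and 11 fragments, a ratio of 2.87 (exact 95% counting interval 1.40 to 6.34) in early LP, where it was called higher (adjusted p = 0.0232), and of 2.04 (exact 95% counting interval 0.955 to 4.63) in median LP, where it was not (adjusted p = 0.128). HPC 1, with 1 fragment, was the lowest library, and the call was lost without it, without early LP 2 or without early LP 3 (adjusted p = 0.0825, 0.0767 and 0.0868). It was also lost with DESeq2 (adjusted p = 0.0537). With length offsets Cox7a1 was called higher in median LP too (adjusted p = 0.0446). Cox6a2, another muscle isoform, was called in neither, with ratios of 0.654 (exact 95% counting interval 0.393 to 1.07) and 1.02 (exact 95% counting interval 0.662 to 1.57). The intervals cover counting error only. Cox6b2, known from testis, was different in that it supplied a sizeable share of its pair: 19.8 ± 1.82% in HPC, 16.0 ± 0.175% for early LP and 14.3 ± 0.920% for median LP. Every LP library was below every HPC library in that share. Its level was 24.7, 27.2 and 46.7 CPM in HPC, 24.2, 24.8 and 26.3 for early LP and 19.0, 18.5 and 22.2 for median LP. It changed by -0.39 (adjusted p = 0.0881) in early LP and fell by 0.73 (SE 0.20, adjusted p = 0.00536) in median LP. The change in early LP was called without HPC 1 or HPC 2 (adjusted p = 0.0188 and 0.0498) and with length offsets (-0.27, adjusted p = 0.0446). Without HPC 3, the highest library, it was -0.047 (adjusted p = 0.659) in early LP and -0.38 (adjusted p = 0.00316) in median LP.

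Of the 17 genes of complex V, 11 were lower in early LP and 12 in median LP, against 37.9% and 37.7% of all genes. None of the 17 was higher in either, against 35.3% and 36% of all genes, and the median log2 change of the complex was -0.32 and -0.43. Without HPC 3 the counts were 10 lower and 1 higher in early LP, and 11 and 2 in median LP. The largest change of any member above 1 CPM was that of Atp5a1, which encodes the alpha subunit of the catalytic F1 head. It stood at 1217, 1228 and 1419.7 CPM in HPC, 479, 515 and 517 for early LP and 457, 429.9 and 427 for median LP. The highest LP library, early LP 3, was far below the lowest HPC library. Atp5a1 (mm10, chromosome 18, 77773768 to 77782868) fell by 1.35 (SE 0.077, adjusted p = 1.52e-08) in early LP and by 1.56 (SE 0.078, adjusted p = 4.37e-09) in median LP. Its partner Atp5b, the beta subunit that forms the head together with alpha in equal numbers, was at 1515, 1582 and 1874 CPM in HPC, 1292, 1346 and 1335 for early LP and 1222, 1207 and 1181 for median LP, without overlap. It fell by 0.32 (SE 0.083, adjusted p = 0.00390) in early LP and by 0.46 (SE 0.083, adjusted p = 0.000314) in median LP. By FPKM, the Atp5a1 level was 497 ± 57.5 against 810.1 ± 108 for Atp5b in HPC, 186 ± 11.5 against 630.2 ± 25.3 in early LP, and 157 ± 12.3 against 560.1 ± 31.5 in median LP. Of the subunits of the central stalk, Atp5d (delta) was at 107, 111 and 151 CPM in HPC, 73.3, 85.2 and 88.6 for early LP and 71.4, 68.9 and 65.1 for median LP. It fell by 0.58 (SE 0.12, adjusted p = 0.00103) in early LP and by 0.85 (SE 0.12, adjusted p = 5.62e-05) in median LP. Atp5c1 (gamma) fell by 0.37 and by 0.43, and Atp5e (epsilon) changed by -0.039 and -0.17 without a call.

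Of the 4 genes of the peripheral stalk, which holds the head still, Atp5o fell by 0.55 (SE 0.090, adjusted p = 0.000154) in early LP and by 0.74 (SE 0.090, adjusted p = 1.34e-05) in median LP. Atp5f1 fell by 0.29 and by 0.36, Atp5h fell by 0.23 and by 0.37, and Atp5j changed by -0.15 and -0.23 without a call. In early LP the call of Atp5h was lost without early LP 2 (adjusted p = 0.0535) and with length offsets (-0.16, adjusted p = 0.0579), which gave -0.20 in median LP. Atp5j was called lower in median LP without HPC 1 (adjusted p = 0.0341). Atp5f1 and Atp5j lie in loci shared with other genes. Among the small membrane subunits Atp5j2 fell by 0.31 and by 0.47, and its call in early LP was lost without HPC 3, early LP 1 or early LP 2 (adjusted p = 0.0517, 0.0645 and 0.0635). Atp5l was called lower in median LP alone, at -0.23, and this call was lost without HPC 3, median LP 2 or median LP 3 (adjusted p = 0.101, 0.112 and 0.104) and with length offsets (-0.030, adjusted p = 0.718). Atp5k changed by -0.39 and -0.15 without a call. Atp5k, the shortest member at 292 bases, was at 11.6, 10.8 and 40.1 CPM in HPC, 11.1, 11.5 and 25.3 for early LP and 19.3, 17.9 and 19.3 for median LP. The libraries numbered 3 of HPC and early LP were far above the others of their group. Without HPC 3 Atp5k was called higher in median LP (0.75, adjusted p = 0.0408). Atp5s, a coupling factor, fell by 0.77 and by 0.62, and Atp5sl was not called but for median LP with length offsets (-0.20, adjusted p = 0.0202) and 2 other scalings, 1 of which also called it lower in early LP.

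The ring of c subunits that turns in the membrane is encoded by 3 genes, Atp5g1, Atp5g2 and Atp5g3, whose mature proteins are the same. Atp5g1 was at 155, 159.5 and 199.9 CPM in HPC, 116, 121 and 121 for early LP and 101, 98.4 and 93.1 for median LP, with no overlap between HPC and LP. It fell by 0.52 (SE 0.091, adjusted p = 0.000250) in early LP and by 0.82 (SE 0.092, adjusted p = 6.43e-06) in median LP. Atp5g3 fell by 0.33 (SE 0.092, adjusted p = 0.00708) in early LP and by 0.46 (SE 0.092, adjusted p = 0.000786) in median LP. Atp5g2, on chromosome 15, was at 237, 229 and 304 CPM in HPC, 273, 293 and 319 for early LP and 289.7, 263 and 267 for median LP. Its changes of 0.20 and 0.088 did not pass the threshold (adjusted p = 0.109 and 0.468), although with length offsets or without HPC 3 it was called higher in both. In shares of their summed FPKM, Atp5g2 went from 41.6, 39.9 and 42.0% in HPC 1 to 3 to 50.2, 52.1 and 52.5% in early LP 1 to 3 and 53.4, 52.1 and 52.7% in median LP 1 to 3. Atp5g1 went from 21.2, 20.9 and 21.1% to 15.7, 15.6 and 15.2% and 14.2, 14.6 and 13.9%. For Atp5g3 the shares were 37.2, 39.2 and 36.9%, then 34.0, 32.3 and 32.4%, then 32.4, 33.3 and 33.4%. HPC and LP libraries did not overlap in any of the 3 shares. An exact two-sided permutation test gave p = 0.1 for each share in each LP group. This is the smallest p that this test can give with 3 against 3 libraries, and any groups without overlap give it. The test therefore cannot pass the threshold here and adds nothing to the lack of overlap.

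**Figure D3:**
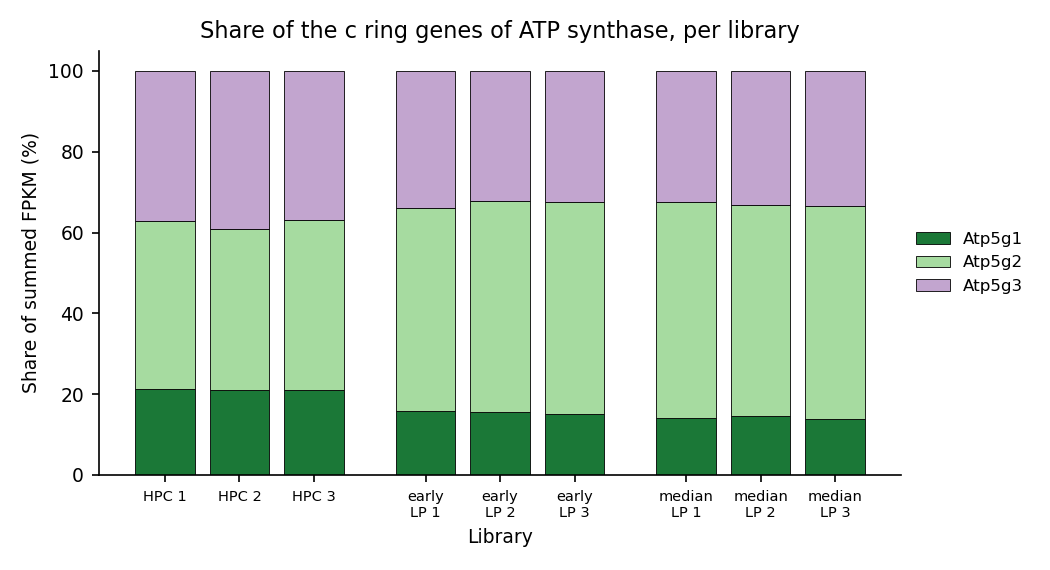
Share (%) of Atp5g1, Atp5g2 and Atp5g3 in their summed FPKM, 1 bar per library. The Atp5g2 share (middle segment) is 39.9 to 42.0% in HPC and 50.2 to 53.4% in LP, and the Atp5g1 share (bottom segment) is 20.9 to 21.2% in HPC and 13.9 to 15.7% in LP.

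Of the members called higher, 6 of 11 in early LP and 4 of 7 in median LP lie on chromosomes 8 and 15. In all, 7 members lie on chromosome 8 (Ndufa13, Ndufb7 and Cox4i1) or chromosome 15 (Ndufa6, Ndufb9, Cox6c and Atp5g2), a grouping chosen with earlier results of these data known. The same HPC libraries serve both comparisons. In early LP 6 of these 7 were higher and none lower, with a median log2 change of 0.49, and in median LP 4 were higher and none lower, with a median of 0.36. Over all 1204 genes tested on the same chromosomes, 808 were higher (67.1%) and 178 lower in early LP, with a median log2 change of 0.53, and 817 and 180 in median LP, with 0.51. Of the 80 members tested elsewhere, 5 were higher and 41 lower in early LP (median -0.28, against -0.088 for all genes elsewhere), and 3 and 51 in median LP (median -0.38, against -0.083). Of all genes tested on any chromosome, 35.3% were higher and 37.9% lower in early LP, and 36% and 37.7% in median LP. Ndufs4 on chromosome 13, Ndufb3 on chromosome 1 and Ndufa1 on the X chromosome were the members elsewhere that rose in both LP groups.

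Changes also differed with transcript length. The 46 members of up to 750 bases had 9 genes higher and 12 lower in early LP (median -0.14) and 6 and 19 in median LP (median -0.18). All 481 genes tested of that length had medians of -0.15 and -0.30. Of all genes tested of any length, 35.3% were higher and 37.9% lower in early LP, and 36% and 37.7% in median LP. The 41 longer members tested had 2 higher and 29 lower in early LP (median -0.37) and 1 and 32 in median LP (median -0.47), while all longer genes tested had medians of -0.033 and -0.026. With offsets for length in each library, 14 of 87 members were higher and 43 lower in early LP, against 35.4% and 42.3% of all genes, and 15 and 52 in median LP, against 35.8% and 42.1%. The medians were then -0.16 and -0.22. Under these offsets the long members had 29 lower calls in early LP and 34 in median LP, with medians of -0.38 and -0.44, and the short ones had medians of -0.015 and 0.025. The subunits of complex II (1073 to 2859 bases) and the nuclear-encoded core of complex I (758 to 2665 bases) belong to the long members, and the genes of complex IV have a median length of 569 bases.

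**Figure D4:**
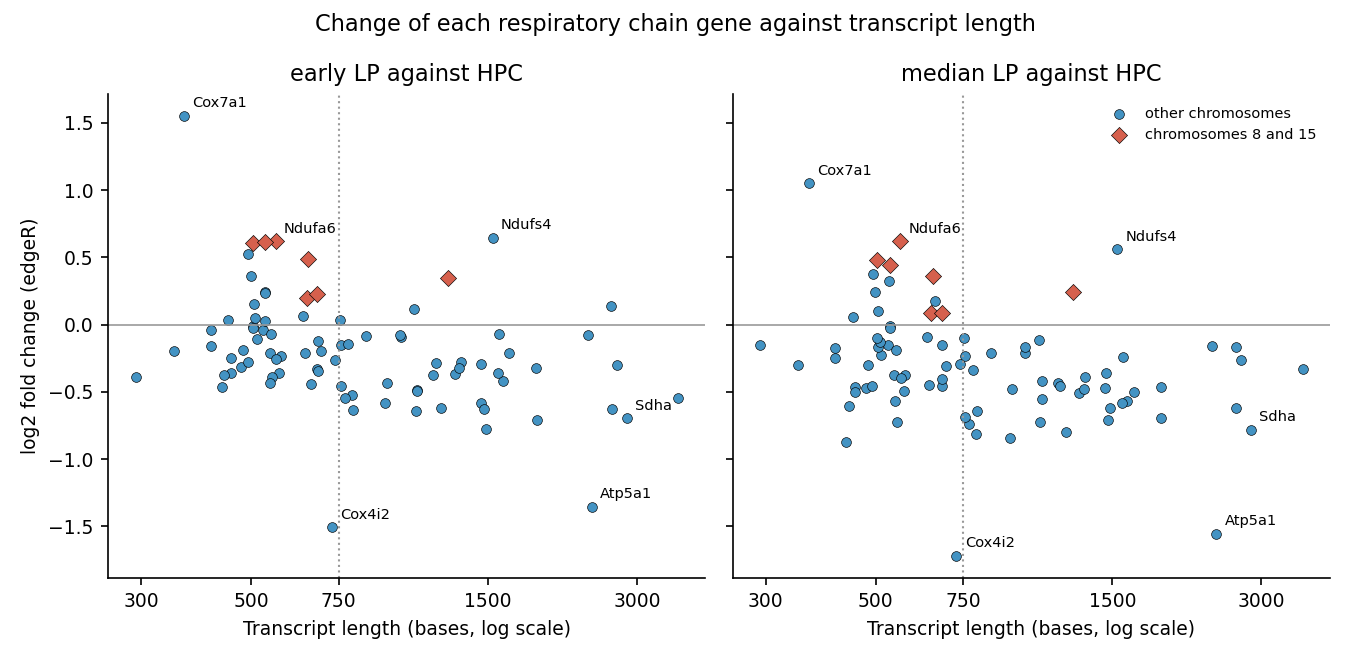
Log2 fold change of each respiratory chain gene against HPC (vertical axis) by transcript length in bases (horizontal axis, log scale), for early LP (left) and median LP (right), with members on chromosomes 8 and 15 as diamonds and a dotted line at 750 bases. The 7 diamonds all lie above 0, and of the circles right of the dotted line Ndufs4 is the highest, at 0.65 and 0.56, and Atp5a1 the lowest, at -1.35 and -1.56.

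Between the LP groups no member was called, while 2.48% of all genes were, and 9 members had an unadjusted p under 0.05 in edgeR, 8 of them lower in median LP. The median log2 change of the 87 members was -0.13, against 0.0 over all genes, and -0.045 with length offsets. Uqcrc1 had a change of -0.29 (SE 0.082, adjusted p = 0.0961), from 264 ± 18.3 to 215 ± 11.2 CPM, and early and median LP libraries did not overlap. Atp5g1 changed by -0.29 (SE 0.091, adjusted p = 0.133), from 119 ± 2.84 to 97.4 ± 3.91 CPM. DESeq2 called Uqcrc1 lower (1.75% of all genes), and edgeR with length offsets Uqcrc1 and Atp5g1 (2.06%). Without HPC 3, whose spread enters the shared estimate, 6 were lower (Atp5g1, Cox6a1, Cox6b2, Ndufb8, Uqcr11 and Uqcrc1), against 2.28% of all genes.

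Summed over a complex, deposited FPKM gives a measure of the RNA behind each enzyme, scaled by length in a way that was not given. It is not CPM divided by the listed length: for Atp5k, the shortest member, FPKM rose from 415 in HPC 1 to 592 in HPC 2 while its CPM fell. Atp5k ranked 3 among the 80 subunit genes in HPC by FPKM, although its CPM, given above, was far below that of Atp5a1. The sums, ratios and ranks below may therefore be weighted toward short transcripts. Complex II stood at 496, 524 and 623 FPKM in HPC 1 to 3, 363, 396 and 385 in early LP 1 to 3 and 369, 323 and 329 in median LP 1 to 3. The LP libraries were all lower, and the ratio of the means to HPC was 0.696 in early LP and 0.621 in median LP. Complex III was at 1669.5, 1720.3 and 2047, then 1472, 1588 and 1472, then 1379.9, 1242 and 1209 FPKM, with ratios of 0.834 and 0.705 and no overlap between HPC and LP. Complex V was at 5862, 6094 and 7335, then 5077, 5529.9 and 5329, then 5067, 4557 and 4411 FPKM, with ratios of 0.826 and 0.728, and its LP libraries lay below all HPC libraries as well. For complex I (4684 ± 629 FPKM in HPC) the ratios were 0.960 and 0.844, and for complex IV (3843 ± 644 FPKM) 1.03 and 0.902, and in both the LP libraries overlapped HPC. Against HPC 1 and HPC 2 alone the ratios in early and median LP were 1.04 and 0.913 for complex I and 1.14 and 0.999 for complex IV. They were 0.748 and 0.667 for complex II, 0.891 and 0.753 for complex III, and 0.889 and 0.783 for complex V. Ndufa4, now known as a subunit of complex IV, was counted with complex I here. It was the largest term of that sum, with means of 609, 508 and 422 FPKM for HPC, early LP and median LP. The ratios of complexes I and IV depend on this placement, and sums with Ndufa4 moved were not made. Cox7a2l, a supercomplex factor, was counted with complex IV, with means of 138, 96.6 and 89.6 FPKM for HPC, early LP and median LP. The sums of all complexes carry no test, and the genes with the highest FPKM weigh most in them. Of the 80 subunit genes, Atp5b had the highest level in HPC, and Atp5a1 went from rank 9 in HPC to rank 30 in median LP. Cox4i1 went from rank 6 to rank 1 and Cox6c from rank 14 to rank 5.

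Genes that feed or build the chain were read from lists beside the members, against 37.9% lower and 35.3% higher of all genes in early LP and 37.7% and 36% in median LP. Of 17 genes of the citric acid cycle and pyruvate dehydrogenase, 13 were lower and 3 higher in early LP, and 13 and 2 in median LP. The median log2 changes were -0.37 and -0.46. Idh3b, a subunit of the NAD-dependent isocitrate dehydrogenase, fell by 0.75 and by 0.76 in early and median LP, and its partner Idh3a fell by 0.47 and by 0.56. Suclg1, of succinyl-CoA ligase, fell by 0.65 and by 0.84, and Dlst, of the oxoglutarate dehydrogenase complex, fell by 0.40 and by 0.46. Of 13 genes of ubiquinone synthesis, 7 were lower and 2 higher in early LP and 8 and 2 in median LP (53.8% and 61.5% lower). Coq2, which joins the ring to its tail, fell by 0.55 and by 0.55, and Coq9, which lies on chromosome 8, rose by 0.38 and by 0.32. Assembly factors that the naming rule does not catch were lower for 5 of 8 of complex I in both LP groups, among them Tmem186, which fell by 0.83 and by 0.64. They were lower for 6 of 15 of complex IV with 2 higher in both LP groups, where 40% lower is near the share of all genes. Among these were Coa5, which fell by 0.74 and by 0.68, and Cox11, a copper factor, which fell by 0.80 and by 0.73. Cycs, the somatic cytochrome c that carries electrons from complex III to complex IV, fell by 0.38 and by 0.23. Atpif1, the inhibitor of ATP synthase, fell by 0.92 (SE 0.12, adjusted p = 1.83e-05) in early LP and by 1.00 (SE 0.12, adjusted p = 8.87e-06) in median LP.

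Among 21 regulators of mitochondrial biogenesis, 13 were lower and 3 higher in early LP, and 13 and 4 in median LP. This was 61.9% lower in early LP and 61.9% in median LP, against 37.9% and 37.7% of all genes. Tfam, which packs and transcribes mitochondrial DNA, stood at 83.5, 88.2 and 84.6 CPM in HPC, 50.3, 43.2 and 44.3 for early LP and 48.6, 45.0 and 46.5 for median LP. HPC and LP did not overlap, and Tfam fell by 0.89 (SE 0.070, adjusted p = 2.51e-07) in early LP and by 0.87 (SE 0.070, adjusted p = 3.15e-07) in median LP. Peo1, the helicase of mitochondrial DNA, fell by 0.76 and by 0.70, and Gabpb1, the beta subunit of GABP, fell by 0.59 and by 0.58. Hif1a, which limits respiration in low oxygen, went the other way and rose by 1.43 (SE 0.088, adjusted p = 3.08e-08) in early LP and by 1.66 (SE 0.088, adjusted p = 8.10e-09) in median LP. Nrf1, which encodes NRF-1, and Gabpa, the DNA-binding subunit of GABP, were picked after their values had been seen, and Nrf1 fell by 0.38 and by 0.40, while Gabpa rose by 0.20 and by 0.19. Of 8 carriers and channels of the mitochondrial membranes tested, 3 were higher and 2 lower in early LP and 2 and 2 in median LP (37.5% and 25% higher, against 35.3% and 36% of all genes). Nnt, the proton-driven transhydrogenase that makes NADPH, rose by 0.48 and by 0.49, Slc25a4, an ADP/ATP carrier on chromosome 8, rose by 0.52 and by 0.35, and Vdac1, a channel of the outer membrane, fell by 0.56 and by 0.58.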

How the data were processed

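RNA of sorted bone marrow cells was sequenced in 9 libraries, 3 per group, from Trizol-extracted total RNA with an Illumina TruSeq kit, per the labels' protocols. Per the submitters' processing notes, TopHat2 version 2.0.6 and build mm10 were used. Quantifier, annotation, strand setting and the treatment of reads with several matches were not given in the sources used here, and short members are known to have processed pseudogenes. The authors deposited FPKM and estimated counts per transcript, per the file headers, with no pooling of libraries. Dividing a library's estimated counts by their smallest step gave whole numbers within 0.05 for 89.7 to 91.3% of values up to 50 steps, taken as recovered fragments.

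Transcripts were summed by gene symbol and counts rounded. Genes were tested by quasi-likelihood in edgeR 4.0.16 (R 4.3.3) with TMM scaling and filterByExpr, all 9 libraries in 1 fit, two-sided, with Benjamini-Hochberg adjustment over 12837 genes. It left out 3700 genes, and the common biological coefficient of variation was 9.81%. The scripts were tested on simulated data. Alternatives were DESeq2 1.42.0, limma 3.58.1 on log2(FPKM + 1) or log2(FPKM + 0.1) with at least 1 FPKM in 3 libraries, other scalings, no filter, recovered fragments, the top transcript alone, length offsets, a replicate block and leaving out each library. Starts in the table count from 0 and were raised by 1. Promoters are from RefSeq on GRCm38.p6. Genes in a locus shared with another gene, 10 of the members, can share reads.

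All members enter the counts, 1 is not reported here by name, and changes, mostly with values per library, were given for up to 3 genes per complex and direction with the largest called changes, isoform pairs, c ring genes and core subunits, and changes for up to 4 genes of a list, by adjusted p. The members and lists were chosen with earlier results of these data known. Mitochondrially encoded genes were not analysed here.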

Additional observations from a re-analysis of the deposited data

How the results depend on the processing

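With library totals as the sole scaling, the median log2 change in early LP against HPC was -0.42 for all members, -0.37 for complex I, -0.68 for complex II, -0.53 for complex III and -0.50 for complex V, and 7 members were higher, as with upper quartile scaling (7). In median LP it was -0.75 for complex II, -0.67 for complex III and -0.57 for complex V. Length offsets gave 15 higher members in median LP, turned the complex IV median there to 0.019, and in median against early LP gave 2 lower members and medians of -0.045 for all members, -0.069 for complex III, -0.057 for complex IV and -0.046 for complex V. DESeq2 gave 1 lower member between the LP groups. Leaving out 1 library at a time gave 6 to 19 higher and 32 to 45 lower members for early LP, 5 to 15 and 46 to 53 for median LP, and 0 to 6 lower between the LP groups. Median changes then ranged over -0.30 to -0.11 for all members, -0.25 to -0.018 for complex I and -0.39 to -0.22 for complex III in early LP, and over -0.23 to 0.058 for complex IV in median LP, where the highest value came without HPC 3. A tally was made for the genes chosen by size of change, or as isoform pairs, c ring genes or core subunits. Among these, a call opposite in sign to the TMM value arose in 3 cases: Cox6b1 in early LP (0.21 without HPC 3) and Cox6a1 in median LP (0.20 with length offsets, and -0.078 to 0.19 when 1 library was left out, highest without HPC 3). Other named genes were not in the tally, and of them Atp5k in median LP, negative with TMM, was called higher without HPC 3 (0.75). With length offsets, uncalled values of Cox6b1 (0.11 for early LP, 0.063 for median LP) and Cox7a2 (0.019 for median LP) were also opposite in sign. Over the genes of the tally and the alternatives, 1882 values kept their side of the threshold, 24 became called and 23 were no longer called. Apart from the construction of each setting, the cause was not tested.

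Libraries share replicate numbers across groups, but the labels give no shared litter or batch. Deviations of same-numbered libraries correlated at r = -0.213 to 0.115 over 9 pairs, of which 2 exceeded 0.1, and in 1 of 9 the library correlated best with its own number. With the number as a replicate block, 11 members were higher and 41 lower for early LP, 7 and 51 in median LP, and none between the LP groups. Depth limits Cox4i2, Cox6a2, Cox7a1 and Ndufa4l2, and 3 libraries per group limit all spreads.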
